A study of Mus musculus with 2 samples.

Results

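Glycolysis and citric acid cycle genes were followed as a set of 42 named genes, of the 19503 genes that the arrays name, in RNA of mouse cerebella taken at postnatal day 7. The genes were listed by symbol and not by a measured value, though earlier results of these data were known when they were chosen. They comprise 16 genes of glycolysis, 2 of lactate dehydrogenase, 3 cytosolic counterparts of cycle enzymes, 9 of pyruvate entry into mitochondria with its regulators, and 12 of the citric acid cycle, which gives 21 cytosolic and 21 mitochondrial members. A value was at hand for 39 of them. Gpi1, Gapdh and Eno1 were not analysed here.

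The mice carried Tg(Pcp2-L10a-Egfp), in which the ribosomal protein L10a, joined to enhanced green fluorescent protein, is expressed from the promoter of the Purkinje cell gene Pcp2. One RNA sample came from ribosomes captured through the tag by translating ribosome affinity purification (TRAP) and the other from the material that the beads left behind (unbound), both from pooled cerebella of the same transgenic line and age. The labels do not give the number of animals, their sex or the strain background. Each fraction was measured on 1 Affymetrix mouse array without replication, so no test was run and no single value has an error.

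Glycolysis splits glucose in the cytosol into pyruvate through a chain of enzymes, most of which exist as several isozymes with their own tissue preferences. Pyruvate is either reduced to lactate by lactate dehydrogenase or carried into mitochondria, where the pyruvate dehydrogenase complex turns it into acetyl-CoA for the citric acid cycle. In brain, neurons and astrocytes are known to differ in their isozymes, and neurons depend heavily on the mitochondrial steps.

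All values are log2 expression levels as deposited, and each difference is TRAP minus unbound. The floor for counting a gene was 7.08, the median over the probe sets of both arrays, to be passed on at least 1 of them. This held for 38 of the 39 measured members, and 35 lay above it on both arrays. Hk2 and Suclg2 passed through their unbound value and Pgam2 through its TRAP value, so a sizeable difference in these 3 genes was partly a condition of counting them. Pdk4, a pyruvate dehydrogenase kinase induced by fasting, read 5.31 in TRAP and 6.34 in unbound and stayed below the floor. A difference of at least 2-fold was used as the rule of size.

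As a check of the labels, Pcp2 read 12.98 in TRAP and 11.65 in unbound, bright in both fractions and 2.52-fold higher in TRAP. Among markers of Purkinje cells, 11 of the 11 with a value had the higher one in TRAP, with a median difference of 1.05. Some markers of other cell types were bright in TRAP too, while others, such as Aqp4, lay below the floor there. The astrocyte marker Fabp7 read 12.27 in TRAP and 13.25 in unbound, and the granule neuron marker Zic1 11.84 and 12.91. How much RNA of other cells TRAP held, and how much Purkinje cell RNA stayed unbound, was not tested. The median difference of all 10524 genes above the floor was -0.13. Subtracting each array's median moved this median by 0.37, quantile normalization by 0.21, and removal of a trend on the mean level by 0.14. Genes represented by several distinct probe sets (572 above the floor) gave the one view of technical scatter that the arrays allow: the range of the difference among probe sets of the same gene had a median of 0.22 and a 90th percentile of 1.02. It measures scatter between probes, not between animals or preparations. In bulk RNA of this kind, fewer cells of a type and less RNA per cell cannot be told apart.

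Most members were higher in the TRAP fraction. Of the 38 above the floor, 27 were higher in TRAP and 11 in unbound, whereas 44.1% of all genes above the floor were higher in TRAP and 55.8% in unbound. The median difference was 0.43. Higher in TRAP with the array medians subtracted were 29 of 38 members and 6384 of 10516 genes. After quantile normalization it was 27 members and 5639 of 10518 genes, and after trend removal 27 and 5320 of 10524. The members' median percentile among all genes was 74.96 as deposited and 74.22 with the array medians subtracted. It fell to 64.38 after quantile normalization and 65.29 after trend removal, so the excess was smaller there. As deposited, 6 members were at least 2-fold higher in TRAP (15.8%, against 8.11% of all genes above the floor). They were Pgam2, Suclg1, Ldhb, Pfkl, Dlat and Pdk3. At least 2-fold higher in unbound were 3 members (7.89%, against 18.6% of all genes), namely Suclg2, Idh1 and Idh2. With the array medians subtracted the split was 12 against 3 (31.6% and 7.89%), where 16.4% and 11.6% of all genes were called. After quantile normalization it was 5 against 3 (13.2% and 7.89%), with 12.0% and 13.7% of all genes. After trend removal it was 4 against 3 (10.5% and 7.89%), with 11.8% and 13.6% of all genes. The share of members at least 2-fold higher in TRAP was thus close to that of all genes under these last 2 scalings. At a 1.5-fold rule 17 of the 38 members were higher in TRAP and 6 in unbound, against 18.8% and 30.9% of all genes. At a 4-fold rule it was 0 and 2, against 0.741% and 4.34%.

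Metabolic genes are abundant, and genes of high level behaved differently from the rest. Among the 2219 genes with a mean level of at least 10, a limit chosen after the data had been seen, the median difference was 0.07 and 54.1% were higher in TRAP. Of the 28 members in that range, 22 were higher in TRAP, with a median of 0.53. Dlat, Suclg1 and Ldhb were the 3 members of that range at least 2-fold higher in TRAP (10.7%, against 8.79% of such genes). No member was at least 2-fold higher in unbound, against 7.39%.

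**Figure D1:**
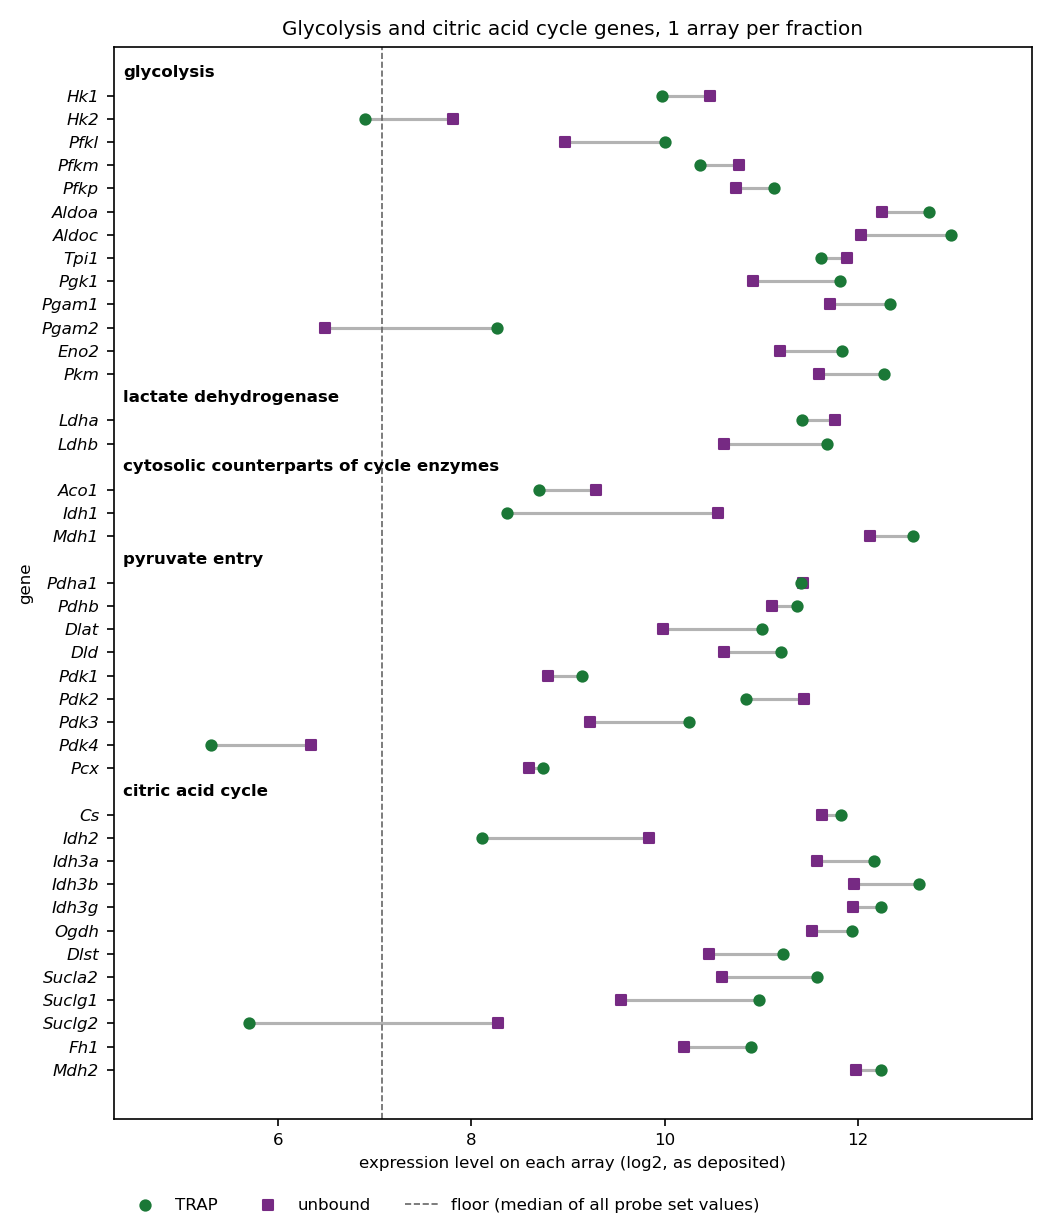
Level of each measured member on the TRAP array (circles) and on the unbound array (squares), in log2 units as deposited, grouped by role, with a dashed line at the floor of 7.08. Circles lie to the right of squares for most genes, and the long bars that run the other way belong to Idh1, Idh2 and Suclg2.

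**Figure D2:**
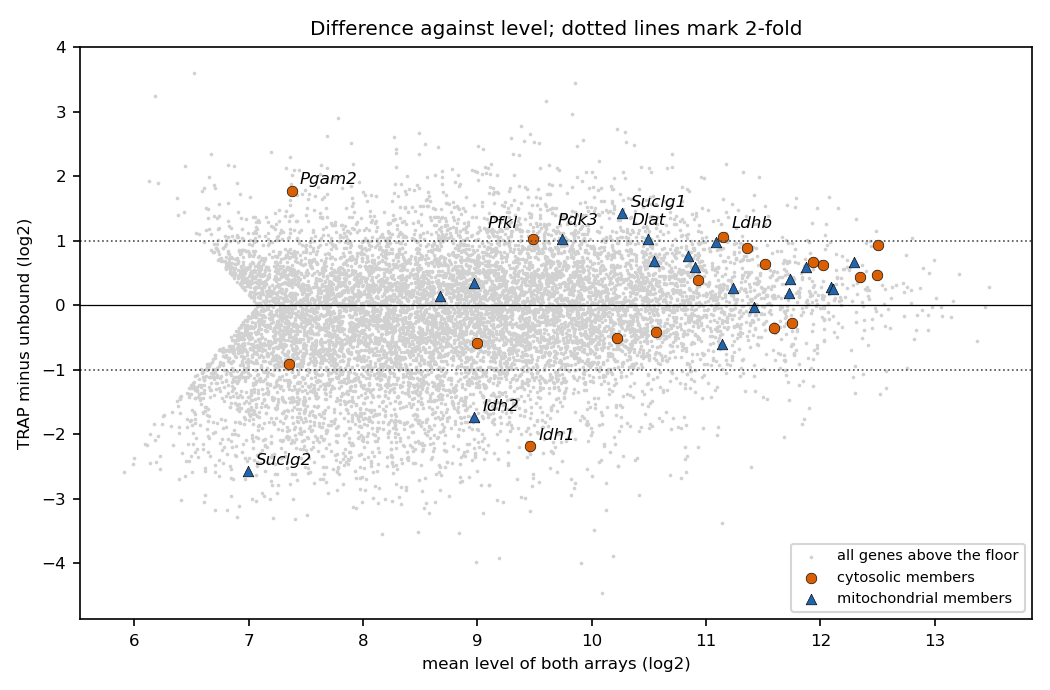
Difference (TRAP minus unbound, log2) against the mean level of both arrays (log2) for 10524 genes above the floor (grey), with cytosolic members as circles and mitochondrial members as triangles. The 9 members outside the dotted 2-fold lines are named, and most members sit at the bright end with small positive differences.

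Glycolytic genes were mostly higher in TRAP by less than 2-fold. Of 13 measured, 9 were higher in TRAP and 4 in unbound, and the median difference was 0.62. The entry step was an exception. Hk1, the hexokinase of most neurons, which docks on the outer mitochondrial membrane, read 9.97 in TRAP and 10.47 in unbound. Hk2, an inducible hexokinase known from proliferating and insulin-sensitive cells, read 6.90 and 7.81. Both hexokinases were thus lower in TRAP, by 0.50 and 0.91 in size. With the array medians subtracted, the differences were -0.17 for Hk1 and -0.58 for Hk2. The gap of 0.41 between them shrank to 0.082 after quantile normalization and 0.045 after trend removal, and the TRAP value of Hk2 lay below the floor.

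Phosphofructokinase, the main control point of glycolysis, is built from 3 subunit types. Pfkl, the liver type, had levels of 10.00 in TRAP and 8.97 in unbound and was 2.05-fold higher in TRAP. Pfkp, the platelet type, read 11.13 and 10.74. Pfkm, the muscle type, read 10.36 and 10.77, lower in TRAP, but its difference was only -0.07 with the array medians subtracted. The order from Pfkl through Pfkp to Pfkm held under all 3 other scalings, and the difference of Pfkl exceeded that of Pfkm by 1.44, or by 1.44 to 1.60 over those scalings.

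The aldolases moved the same way. Aldoc, also known as zebrin II, marks stripes of Purkinje cells in the mature cerebellum and is made by astrocytes too. Its level was 12.97 in TRAP and 12.03 in unbound, 1.91-fold higher in TRAP and at the 90.6th percentile of all genes above the floor. Aldoa, the muscle and general form, read 12.73 and 12.25, a 1.39-fold difference. The difference of Aldoc exceeded that of Aldoa by 0.45 and by no more than 0.47 under the other scalings, which lies within the range seen between probe sets of single genes. Of the astrocyte markers, 13 of 14 were higher in unbound, with levels of 5.26 to 12.27 in TRAP and 8.27 to 13.25 in unbound. Some of them lay below the floor in TRAP and passed through their unbound value. The part of astrocytes in the Aldoc value was not tested.

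Among the later steps of glycolysis, Tpi1, triose phosphate isomerase, read 11.62 in TRAP and 11.88 in unbound, and its difference of -0.27 became 0.06 with the array medians subtracted. Pgk1, the first ATP-yielding kinase of the pathway, was 1.86-fold higher in TRAP (11.81 against 10.92). Pgam1, the brain form of phosphoglycerate mutase, was 1.54-fold higher (12.33 against 11.71). Both are represented by 3 probe sets, of which 2 carry identical values, so these readings are not independent and may include near-identical gene copies. Eno2, the neuron-specific enolase, was 1.57-fold higher in TRAP (11.84 against 11.19). Pkm, pyruvate kinase of muscle and brain, was 1.59-fold higher (12.27 against 11.60), with no separation of its splice forms.

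Pgam2, the muscle form of phosphoglycerate mutase, read 8.26 in TRAP and 6.49 in unbound, or 3.43-fold higher in TRAP. The unbound value lay below the floor, where no detection call exists, so the fold and any rank built on it are uncertain. The TRAP value lay 1.19 above the floor, less than the difference of 1.43 measured above the floor on both arrays for Suclg1. The difference of Pgam1 minus that of Pgam2 was -1.16 as deposited, -1.48 after quantile normalization and -1.62 after trend removal.

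Lactate dehydrogenase is a tetramer of A subunits, which favour lactate formation, and B subunits, which favour lactate use. Ldhb read 11.68 in TRAP and 10.61 in unbound and was 2.09-fold higher in TRAP, and its 2 probe sets gave differences of 1.13 and 1.00. Ldha read 11.42 and 11.76, a difference of -0.34. The fractions therefore differed in opposite directions for the A and B genes, and the difference of Ldhb exceeded that of Ldha by 1.41, a 2.66-fold change in their ratio. This gap was 1.34 to 1.43 over the other scalings and the brightest probe set. The sign of Ldha rested on little, at -0.014, when the array medians were subtracted. Ldhb itself lay just under the 2-fold mark after quantile normalization (1.00, which is 2-fold only as rounded) and after trend removal (0.97).

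The 250 bases before the transcription start of these genes (RefSeq, GRCm38.p6) are shown because Ldha and Ldhb differed in direction, with Pgk1 as a glycolytic gene that moved with Ldhb. Capitals mark ACGTG on either strand, the core of many hypoxia response elements; CACGTG, the E-box read by Myc family factors, holds an overlapping pair of such matches. The windows are chr7:46845554-46845803 on the plus strand for Ldha, chr6:142507958-142508207 on the minus strand for Ldhb and chrX:106186850-106187099 on the plus strand for Pgk1.
Ldha: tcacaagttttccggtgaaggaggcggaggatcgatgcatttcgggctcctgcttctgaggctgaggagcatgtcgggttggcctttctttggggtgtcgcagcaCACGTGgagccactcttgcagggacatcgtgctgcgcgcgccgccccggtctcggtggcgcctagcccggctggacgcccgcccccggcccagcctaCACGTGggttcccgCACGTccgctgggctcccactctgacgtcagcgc
Ldhb: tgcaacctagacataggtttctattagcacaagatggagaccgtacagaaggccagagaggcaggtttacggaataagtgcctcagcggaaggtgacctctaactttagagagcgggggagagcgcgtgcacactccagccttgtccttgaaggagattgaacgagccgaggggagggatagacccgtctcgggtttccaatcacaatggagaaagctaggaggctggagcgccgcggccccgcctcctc
Pgk1: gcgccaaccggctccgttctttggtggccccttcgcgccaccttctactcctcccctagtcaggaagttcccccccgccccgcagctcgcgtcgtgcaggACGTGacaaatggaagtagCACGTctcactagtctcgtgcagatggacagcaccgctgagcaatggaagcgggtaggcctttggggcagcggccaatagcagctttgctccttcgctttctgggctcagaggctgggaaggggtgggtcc
Ldha held 5 matches to ACGTG, 4 of them in 2 CACGTG boxes, Ldhb none and Pgk1 2. So a gene lower in TRAP and a gene higher in TRAP both carried the motif. Other forms of the hypoxia response core were not searched, so a window without ACGTG may still hold one. The Ldhb window shown does hold GCGTG, such a form, so its contrast with Ldha covers ACGTG only. Over the 38 measured members with a promoter entry, where for several starts the window with most CG dinucleotides was used, 12 (31.6%) held ACGTG, against 18.9% of 15285 promoters of genes on the array. The shares were 6 of 18 for cytosolic and 6 of 20 for mitochondrial members. For CACGTG they were 4 of 38 members (10.5%), against 7.22% of promoters. A match is a description of these letters and not a binding site.

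Genes of pyruvate entry into mitochondria differed unevenly, also within a complex. Of the 8 genes above the floor, 6 were higher in TRAP, with a median of 0.31. In the pyruvate dehydrogenase complex, the decarboxylase subunit genes Pdha1 and Pdhb read 11.41 and 11.37 in TRAP and 11.43 and 11.11 in unbound. Pdha1 was nearly equal on both arrays, and its difference of -0.020 became 0.31 with the array medians subtracted. Dlat, the acetyltransferase core, read 11.00 and 9.98, a 2.03-fold difference that dropped to 0.97 on the log2 scale after trend removal. Dld, the dihydrolipoamide dehydrogenase shared with other complexes, was 1.51-fold higher in TRAP (11.20 against 10.61).

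The kinases that switch this complex off did not move together. Pdk3 read 10.25 in TRAP and 9.23 in unbound, 2.03-fold higher in TRAP, which held at 1.05 or more on the log2 scale under the other scalings. Pdk1, a kinase induced by hypoxia, read 9.15 and 8.79. Pdk2, the most widely expressed of the kinases, read 10.84 and 11.44 and was lower in TRAP, by 0.60 in size. The difference of Pdk2 was -0.27 with the array medians subtracted, -0.65 after quantile normalization and -0.70 after trend removal. Pcx, the pyruvate carboxylase that refills the cycle and is known mainly from astrocytes in brain, read 8.75 and 8.59, a difference of 0.15.

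**Figure D3:**
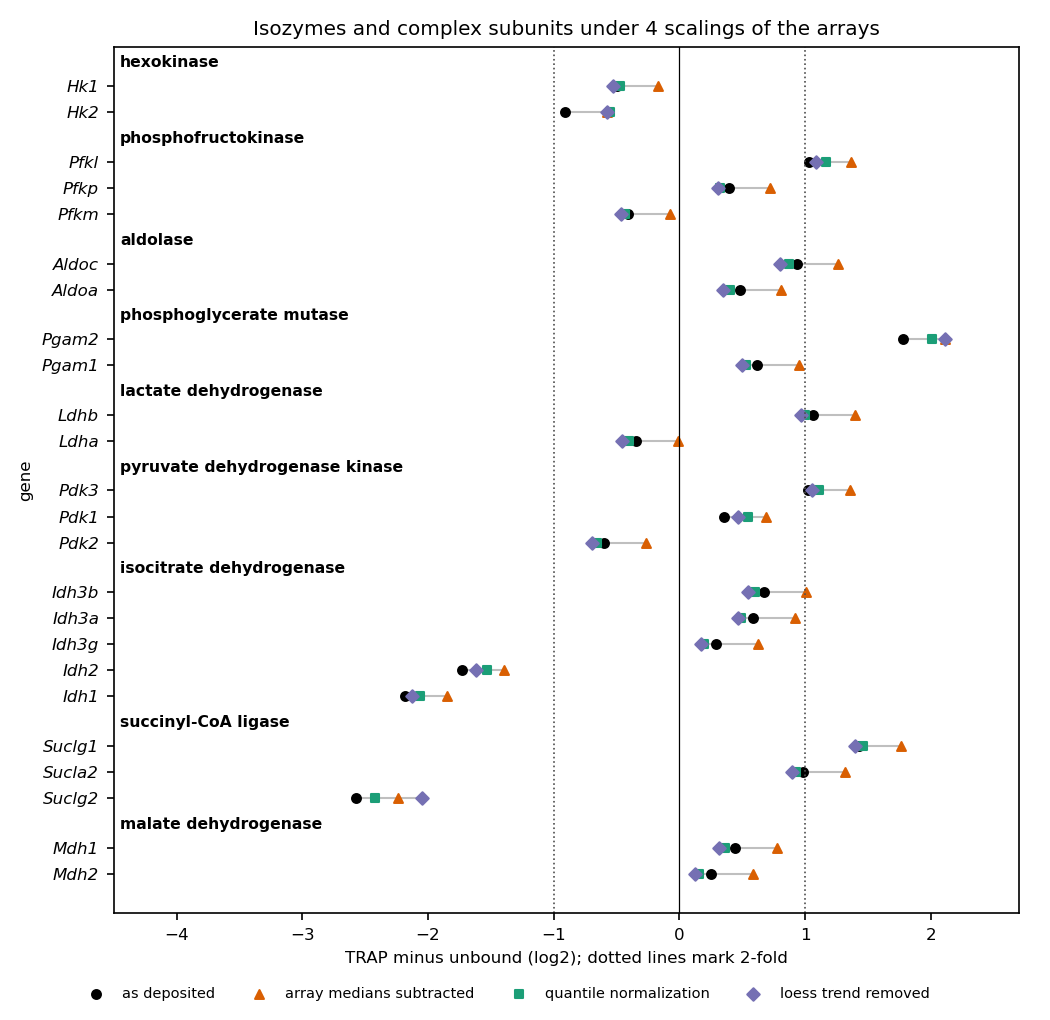
Difference (TRAP minus unbound, log2) of isozymes and complex subunits, as deposited and under 3 other scalings of the arrays; dotted lines mark 2-fold. Subtracting the array medians shifts each gene to the right by 0.33, and Suclg2, Idh1 and Idh2 stay beyond 2-fold on the left under each scaling.

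Citric acid cycle genes were mostly higher in TRAP, with a pair of exceptions. Of 12 mitochondrial members, 10 were higher in TRAP, with a median of 0.50, and Suclg2 and Idh2 were lower. Citrate synthase, Cs, read 11.82 in TRAP and 11.62 in unbound and was 1.15-fold higher in TRAP. The NAD-dependent isocitrate dehydrogenase of the cycle was higher in TRAP for each of its subunit genes, with Idh3a at 12.16 against 11.58, Idh3b at 12.63 against 11.96 and Idh3g at 12.24 against 11.94. For the oxoglutarate dehydrogenase complex, Ogdh, its decarboxylase, was 1.33-fold and Dlst, its succinyltransferase, 1.71-fold higher. Fumarase, Fh1, was 1.62-fold higher (10.89 against 10.20) and the mitochondrial malate dehydrogenase Mdh2 1.19-fold (12.23 against 11.98).

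Succinyl-CoA ligase gave the widest split. This enzyme pairs a common alpha subunit, encoded by Suclg1, with a beta subunit that sets whether ATP or GTP is formed. Suclg1 read 10.98 in TRAP and 9.55 in unbound, 2.69-fold higher in TRAP, the largest of the cycle members in favour of TRAP. Sucla2, the ATP-forming beta subunit, read 11.58 and 10.59, a 1.98-fold difference. Suclg2, the GTP-forming beta subunit, read 5.70 and 8.28, 5.95-fold higher in unbound and at the 1.20th percentile of all genes. Its 2 probe sets gave -2.36 and -2.78. The difference of Suclg2 minus that of Sucla2 was -3.56 as deposited, -3.35 after quantile normalization and -2.94 after trend removal. The TRAP value of Suclg2 lay below the floor, so the size of its fold is uncertain.

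The NADP-dependent isocitrate dehydrogenases also left the common direction, in both compartments. Idh1, the cytosolic and peroxisomal enzyme, read 8.37 in TRAP and 10.55 in unbound, 4.53-fold higher in unbound. Idh2, its mitochondrial counterpart, read 8.11 and 9.84, 3.31-fold higher in unbound. Both lay above the floor on both arrays. Their differences stayed between -2.18 and -1.40 under every scaling tried, while those of Idh3a, Idh3b and Idh3g stayed between 0.17 and 1.01. Beside these values, markers of other cell types were also higher in unbound. The medians were -2.21 for astrocytes and Bergmann glia and -1.85 for 10 oligodendrocyte lineage markers. They were -1.71 for 11 granule neuron markers and -1.58 for 11 granule neuron progenitor markers. Some markers of the first 2 lists, such as Aqp4 and Enpp6, lay below the floor in TRAP. For those, a negative difference was a condition of counting them. The part of these cell types in the values of Idh1, Idh2 and Suclg2 was not tested.

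Among the remaining cytosolic counterparts, Aco1, the aconitase that doubles as an iron regulatory protein, read 8.70 in TRAP and 9.29 in unbound, a difference of -0.59. Mdh1, the cytosolic malate dehydrogenase of the malate-aspartate shuttle, read 12.57 and 12.13. Its difference of 0.44 exceeded that of Mdh2 by 0.19, which is below the median range between probe sets of a gene.

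Cytosolic and mitochondrial members as wholes differed little and in no fixed direction. The median difference was 0.46 over 18 cytosolic members and 0.38 over 20 mitochondrial members above the floor. The mitochondrial median minus the cytosolic one was -0.075 as deposited, and 0.060 and 0.070 after quantile normalization and trend removal. The cytosolic members were the more scattered, with an interquartile range from -0.39 to 0.84 against 0.19 to 0.71. At least 2-fold higher in TRAP were 3 members of each compartment (16.7% of cytosolic and 15% of mitochondrial, against 8.11% of all genes). In unbound it was 1 cytosolic and 2 mitochondrial members (5.56% and 10%, against 18.6% of all genes). Among them, Pgam2 and Suclg2 passed the floor on 1 array only.

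Genes around these pathways were taken from lists written for this comparison. Of 10 further pyruvate dehydrogenase and cycle genes above the floor, 7 were higher in TRAP, with a median of 0.57. Pdhx, which binds Dld to the complex, was 2.03-fold higher (10.29 against 9.26), close to Dlat. Succinate dehydrogenase was uneven, with Sdhd 2.61-fold (12.04 against 10.66) and Sdhb 1.99-fold higher in TRAP, while Sdhc differed by -0.08, or by 0.25 with the array medians subtracted. Pck2, the mitochondrial PEP carboxykinase, had the lowest difference of this list at -0.27, a sign that each of the 3 other scalings reversed. Among 6 other glycolytic isozymes and regulators above the floor, the 2-fold mark was not reached: Pfkfb3 and Pfkfb4, which make the activator of phosphofructokinase, differed by 0.51 and 0.49. Bpgm, bisphosphoglycerate mutase, differed by -0.78, and Pfkfb2 by -0.26 or 0.07 with the array medians subtracted.

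Of 7 genes of sugar and monocarboxylate transport above the floor, 5 were higher in unbound, where 55.8% of all genes were, and 2 in TRAP. Their median of -0.74 was -0.24 with the array medians subtracted, -0.37 after quantile normalization and -0.43 after trend removal. Slc16a7 and Slc16a1, monocarboxylate transporters, favoured the unbound fraction 3.71-fold and 2.10-fold. The TRAP value of Slc16a7 lay below the floor, and its difference was -0.85 after trend removal. Slc16a1 fell short of 2-fold under each of the 3 other scalings, at -0.75 to -0.72. Slc2a3, the neuronal glucose transporter, read 8.04 in TRAP and 8.88 in unbound, and Slc2a1, the glucose transporter of endothelium and glia, 7.51 and 8.24. Mpc1, a subunit of the mitochondrial pyruvate carrier, read 12.18 and 11.56, higher in TRAP. Slc2a6 read 7.17 in TRAP and 6.81 in unbound, a difference of 0.36. It passed the floor through its TRAP value only, so its direction was partly a condition of counting it.

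The list of redox shuttles and malic enzymes held 11 genes, of which 8 were higher in TRAP, with a median of 0.38. Of these, 5 belong to the malate-aspartate shuttle, which carries reducing equivalents into mitochondria, and the others are the malic enzyme genes Me1, Me2 and Me3, at 0.65, 0.22 and 0.38. In that shuttle, Slc25a11, the oxoglutarate carrier, was 1.98-fold and Got1, the cytosolic aspartate aminotransferase, 1.84-fold higher in TRAP, while Slc25a12, the aspartate-glutamate carrier of brain, differed by 0.048 and turned negative after quantile normalization and trend removal. For the glycerol phosphate shuttle, Gpd1 and Gpd2, its cytosolic and mitochondrial dehydrogenases, favoured the unbound fraction 2.05-fold and 2.15-fold. Neither reached 2-fold under the 3 other scalings, with -0.75 to -0.47 for Gpd1 and -0.86 to -0.78 for Gpd2. The TRAP value of Gpd1 lay below the floor.

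**Figure D4:**
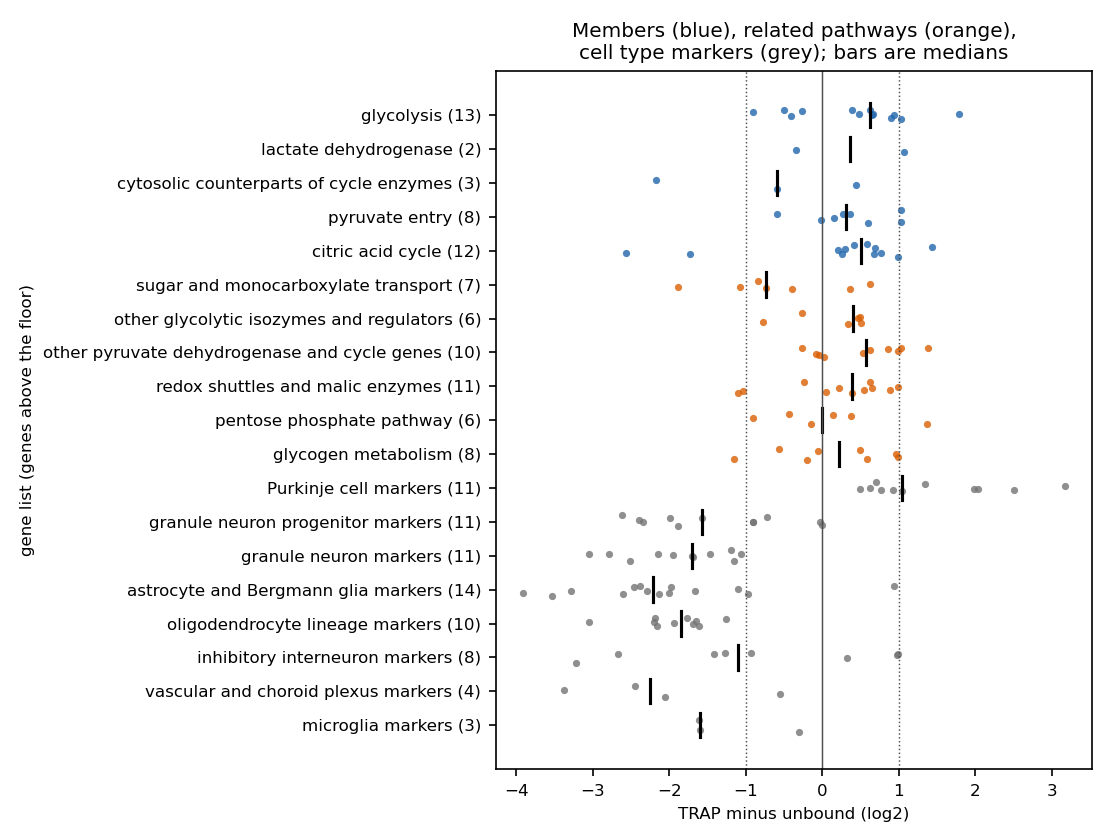
Difference (TRAP minus unbound, log2) of each gene above the floor by list, with members in blue, related pathways in orange and cell type markers in grey; bars are medians, dotted lines mark 2-fold, vertical scatter within a list has no meaning and numbers in brackets count genes. The glycolysis and citric acid cycle medians (0.62 and 0.50) lie between those of all genes (-0.13) and of the Purkinje cell markers (1.05).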

How the data were processed

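The authors deposited log2 expression values of 22097 probe sets on each of 2 arrays; the submitters' processing notes name Affymetrix Power Tools. Its version and the methods of background correction, normalization and probe summary were not given in the sources used here, and no log base is named; it was taken as log2, since natural logs would exceed the scanner's range. No scanner signals or detection calls were used, and precision is limited by the number of arrays.

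Genes were assigned from the platform annotation, in which 20999 probe sets name 1 gene and 91 several (not used); 1007 have no name here. Symbols of all 39 measured members matched RefSeq (GRCm38.p6) by Entrez identifier. Probe sets were averaged per gene, and 10524 of 19503 genes exceeded the floor. Values were used as deposited. Python 3.11.15, pandas 2.3.3 and statsmodels 0.14.6 were used, and the scripts were tested on simulated data.

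The members and lists were chosen with earlier results of these data known. All members with a value could be named; of other pathway lists, genes at least 2-fold apart and 2 from each end; of marker lists, 2 from each end. Alternatives were median subtraction, quantile normalization, loess trend removal (span 0.3), other floors, the brightest probe set, and 1.5-fold and 4-fold rules. Of 201 listed genes, 15 were not analysed here.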

Additional observations from a re-analysis of the deposited data

How the results depend on the processing

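Of 38 members above the floor, those at least 2-fold higher in TRAP numbered 6 as reported (15.8%, against 8.11% of all genes). They numbered 12 with the array medians subtracted (31.6%, against 16.4%). At a 1.5-fold rule 17 of the 38 were higher in TRAP, against 18.8% of all genes, and at a 4-fold rule 0, against 0.741%. Those at least 2-fold higher in unbound numbered 3 (7.89%, against 18.6% of all genes). At the 1.5-fold rule 6 of the 38 were higher in unbound, against 30.9%, and at the 4-fold rule 2, against 4.34%. With no floor, members at least 2-fold higher in unbound numbered 4. They numbered 2 with either the floor at the 75th percentile or that on the mean of both arrays. The shares of all genes under these other floors were not computed, so those counts have nothing to be set against. Counting genes with a mean level of at least 10, a choice made after the data had been seen, gave 3 and 0 of 28 members. These were 10.7% and 0%, against 8.79% and 7.39% of such genes. Suclg2, Idh1 and Idh2 were at least 2-fold higher in unbound under each scaling; Pgam2, Suclg1, Pfkl and Pdk3 were at least 2-fold higher in TRAP under each. The mitochondrial median minus the cytosolic median was -0.075 as reported and turned to 0.060 after quantile normalization, 0.070 after trend removal and 0.041 with a floor at the 75th percentile; the cause was not tested. The medians of both compartments and the contrasts of Aldoc with Aldoa and Ldhb with Ldha kept their direction and moved by less than a factor of 1.5 in unlogged units under all alternatives run. The contrast of Hk1 with Hk2 kept its sign but shrank from 0.41 to 0.082 after quantile normalization and 0.045 after trend removal, and it could not be formed with the higher floor, below which Hk2 lies. Among 38 members, Tpi1 and Pdha1 changed sign, both with the array medians subtracted. No replicate could be left out, and no paired analysis was possible because each fraction has 1 array and the labels give no replicate number.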

Other observations

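Branches off glycolysis showed no common direction. Of 6 pentose phosphate pathway genes above the floor, 3 were higher in TRAP and 3 in unbound, with a median of -0.00065. Pgls, the lactonase of the oxidative branch, read 9.39 in TRAP and 8.03 in unbound, 2.57-fold higher in TRAP, whereas Pgd, the dehydrogenase that follows it, differed by -0.14, or 0.19 with the array medians subtracted. In the branch that interconverts sugars, Rpe and Rpia, which act on ribulose phosphate, differed by -0.91 and -0.44, and Taldo1, transaldolase, by 0.37. Under the 3 other scalings Rpia differed by only -0.15 to -0.098, and Rpe by -0.78 to -0.58.

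Of 8 glycogen genes above the floor, 4 were higher in each fraction and the median was 0.22. Gyg, the primer of glycogen synthesis, was 1.99-fold and Pgm1, a phosphoglucomutase, 1.94-fold higher in TRAP (9.78 against 8.78 and 10.21 against 9.26). Pgm2, a related mutase, read 7.72 in TRAP and 8.88 in unbound, 2.23-fold higher in unbound, but short of 2-fold under each of the 3 other scalings (-0.90 to -0.83 on the log2 scale). Pygb, the brain glycogen phosphorylase, differed by -0.57.

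Markers of other cell types set these values in context. Among 8 inhibitory interneuron markers above the floor, 5 were higher in unbound, with a median of -1.10, led by Tfap2b at -3.22 and Kit at -2.68. Lhx5 and Lhx1, which Purkinje cells also express, differed by 0.99 and 0.97. Of 10 vascular and choroid plexus markers 4 lay above the floor, with a median of -2.25, and of 9 microglia markers 3 did, with a median of -1.59. Each counted marker of these last lists except Ttr lay below the floor in TRAP, as did Kit and Nxph1. They passed through their unbound value, so a negative difference was a condition of counting them.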
